A study of Mus musculus with 8 samples.

Results

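The endothelin system was described here through 6 genes, Edn1, Edn3, Ednra, Ednrb, Ece1 and Ece2, picked by symbol from the 22518 genes measured in whole mouse hearts. Each symbol matched 1 row, and 5 of the 6 had a mean of at least 1 FPKM (fragments mapped per kilobase of transcript, scaled to the library) and were tested, as were 11390 genes in all. Edn3 lay below that level. The hearts came from C57BL/6 mice at postnatal day 12, 4 labelled wild type and 4 labelled PHD2/3 endothelial knockout, the former being littermates of the latter. PHD2 and PHD3 are oxygen-dependent prolyl hydroxylases that mark hypoxia-inducible factors (HIF) for degradation through their alpha subunits. The promoter that drove deletion and the design of the alleles are not stated in the labels, and no treatment is recorded for either group. The comparison asks how the heart's genes differ when these enzymes are lost from endothelial cells.

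Endothelin-1, the product of Edn1, is a short vasoconstrictor peptide released mainly by endothelial cells. It is cut from a precursor by furin-type proteases and then by the endothelin-converting enzymes, membrane metalloproteases encoded by Ece1 and Ece2. The receptor ETA, encoded by Ednra, sits chiefly on smooth muscle cells, cardiomyocytes and fibroblasts and couples to G proteins that raise calcium. The receptor ETB, encoded by Ednrb, binds all endothelins alike; on endothelial cells it triggers nitric oxide release and clears the peptide, and with Edn3 it guides melanocyte and enteric neuron precursors. Low oxygen is a known inducer of Edn1.

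Sequences around the start of Edn1 are shown because it was the 1 member that passed the test, and those of Ece1 and Ece2 because their start windows were the others that held the core letters bound by HIF. RefSeq windows on GRCm38.p6, from 250 bases before to 50 bases after each start, were present for all 6 members, with 4 windows for Ece1. The letters ACGTG, the HIF core, were searched on both strands, so CACGT marks the opposite strand. A GATA core and AP-1 like letters were also searched and are named where found. A match without a name is of the HIF core. Of 32851 windows of 300 bases in the whole table, 19.6% held a match. The 250 bases before the Edn1 start, on the plus strand at chr13:42301226-42301475, held no match and are printed without capitals, followed by 30 bases around each match with the matched letters in capitals.
Edn1 upstream: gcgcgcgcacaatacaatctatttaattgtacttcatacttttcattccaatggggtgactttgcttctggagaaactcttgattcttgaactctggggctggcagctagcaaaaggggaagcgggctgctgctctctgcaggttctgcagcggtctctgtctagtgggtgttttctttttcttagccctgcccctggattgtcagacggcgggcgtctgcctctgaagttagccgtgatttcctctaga
Edn1 at chr13:42301485-42301514, plus strand: tatctctggctgCACGTtgcctgtgggtga
Ece1 at chr4:137913457-137913486, plus strand: cctgggagaggcACGTGccccgccggccac
Ece2 at chr16:20629747-20629776, plus strand: cggttgcgcggaACGTGgtctgggcgcgga

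The Edn1 match lay on the opposite strand, 22 to 26 bases after the start counted from 1, in the part of exon 1 that GENCODE M21 annotates as untranslated. The same window held a GATA core (GATAA, found as TTATC at bases 9 to 13 after the start; 25.4% of all windows held one on either strand). It also held the AP-1 like letters TGACTAA at bases 37 to 43, present on either strand in 2.35% of all windows. In Ece1 the match lay in the window of the third of its 4 RefSeq starts, from base -89 to base -85 relative to that start. It is part of the palindrome CACGTG, so it also reads as a match on the other strand, and in GENCODE M21 it lies within an intron of the longer transcripts. The Ece2 match lay from base -92 to base -88 relative to its start. Windows of Edn3, Ednra and Ednrb and the other 3 of Ece1 did not hold the HIF core. No window of a member other than Edn1 held the GATA core or the AP-1 like letters. A match is only a run of letters and does not show binding.

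Across the series, 1385 of 11390 tested genes were called, 701 raised and 684 lowered, and omission of 1 heart moved this count to between 575 (without wild type replicate 2) and 1820 (without knockout replicate 1). Leaving out wild type replicate 3 or 4 gave 840 or 744 calls, and leaving out knockout replicate 2 or 3 gave 759 or 893. The targeted genes did not fall in whole-heart RNA. Egln1, which encodes PHD2, read 54.2, 54.4, 57.9 and 45.2 FPKM in the wild type against 58.4, 55.0, 52.6 and 63.5 FPKM in the knockout, in the order of replicates 1 to 4 (limma adjusted p = 0.442). Egln3, which encodes PHD3, read 25.1, 31.3, 38.7 and 18.0 FPKM against 52.8, 37.8, 32.6 and 40.1 FPKM (adjusted p = 0.132), and for both genes the ranges overlapped. Whole-heart RNA mixes endothelial with other cells, and a value per gene does not show a deleted exon. The genotype therefore rests on the labels, and why neither gene fell was not tested. Ddx3y, a gene of the Y chromosome, was at 0.138 FPKM in wild type replicate 2, 0.104 FPKM in knockout replicate 1, 1.10 FPKM in wild type replicate 3 and 14.0 to 22.2 FPKM in the other 5 hearts, so libraries within each group differed in this marker of male tissue. Wild type replicate 4 stood apart. The summed level of 9 lung epithelial markers was 1299 FPKM in it and 0.401 to 1.14 FPKM in the other 7 hearts, with the airway genes Scgb1a1 and Scgb3a2 at 1030.4 and 206 FPKM.

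Edn1 was the ligand gene at a measurable level. It lies on mm10 at chr13:42301476-42307990. Wild type replicates 1 to 4 gave 2.97, 3.75, 3.56 and 4.06 FPKM, and knockout replicates 1 to 4 gave 5.25, 8.74, 5.03 and 4.85 FPKM. Every knockout heart was above every wild type heart, and knockout replicate 2 stood well above the other 3 knockout hearts. The mean rose from 3.58 ± 0.460 to 5.97 ± 1.85 FPKM (SD, n = 4 per group), 1.67-fold, with a difference of 0.58 ± 0.16 (SE) on the log2(FPKM + 1) scale, which understates the change of low genes (limma adjusted p = 0.0474 over all tested genes). An exact permutation test, two-sided, gave p = 0.0286, unadjusted and the smallest that 4 against 4 samples allow. Among all tested genes 12.2% passed the limma test, 6.15% as raised, and 10.3% lay higher in every knockout than in every wild type heart.

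The call of Edn1 lay near the threshold. Omitting 1 heart in turn gave a log2 difference of 0.40 (without knockout replicate 2) to 0.65 (without knockout replicate 4). Wild type replicate 4, the library with airway genes, was the highest wild type heart for Edn1, and without it the log2 difference was 0.63. The adjusted p by limma was 0.103, 0.107, 0.0950 and 0.0773 without wild type replicates 1, 2, 3 and 4 in turn. It was 0.0537 without knockout replicate 2 and 0.0674 without knockout replicate 3, but 0.0452 without knockout replicate 1 and 0.0389 without knockout replicate 4, the library whose number in its title lies outside the run of the other 7. The direction was the same in each of these omissions. With the level of Ddx3y as a covariate the difference was 0.57 and the adjusted p 0.0782. The labels do not say whether each library is of 1 animal, so the p-values speak only of the spread among these 8 samples, each called a heart here. Quantile normalisation hides the sequencing depth, so the counting error behind a level of a few FPKM is unknown. A gene on the opposite strand, Gm47118, overlaps Edn1, and whether the quantification used strand is not given in the sources used here.

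Edn3, the ligand of ETB in neural crest development (chr2:174760619-174784042), was barely detected. In the order of replicates 1 to 4, wild type hearts gave 0.112, 0.151, 0.104 and 0.0669 FPKM and knockout hearts 0.435, 0.438, 0.0413 and 0.160 FPKM. Knockout replicates 1 and 2 were above all wild type hearts, while knockout replicate 3 was the lowest of all 8. The groups did not differ beyond this spread (log2 difference 0.18, exact two-sided permutation p = 0.257; limma without the filter, adjusted p = 0.336). Edn2, the ligand gene outside these 6, was listed at 0 in wild type replicates 1, 2 and 3 and knockout replicate 1, and at no more than 0.0721 FPKM in any heart.

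Ednra, the ETA receptor (chr8:77663031-77724464), was the member next closest to the threshold. Wild type replicates 1 to 4 were at 13.8, 12.7, 14.8 and 13.6 FPKM and knockout replicates 1 to 4 at 14.8, 15.7, 21.0 and 22.8 FPKM. Knockout replicates 3 and 4 were well above the wild type hearts, and knockout replicates 1 and 2 were just above them, so the groups touched without overlapping. The group means were 13.7 ± 0.873 and 18.6 ± 3.94 FPKM (SD, n = 4 per group; log2 difference 0.39 ± 0.13, limma adjusted p = 0.0844; exact two-sided permutation p = 0.0286, unadjusted). Without knockout replicate 1 the adjusted p was 0.0311 and the log2 difference 0.49. Without knockout replicate 4 these were 0.137 and 0.29. A noncoding gene on the opposite strand, 4933431K23Rik, spans the whole of Ednra.

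Ednrb, the ETB receptor (chr14:103814625-103844402), did not pass the test. Wild type replicates 1 to 4 read 7.78, 9.96, 9.998 and 11.3 FPKM, and knockout replicates 1 to 4 read 10.5, 11.7, 9.58 and 9.73 FPKM. The groups overlapped, with wild type replicate 1 the lowest and knockout replicate 2 the highest of the 8. The log2 difference was 0.09 ± 0.11, with a 95% interval of -0.16 to 0.34 that covers folds of 0.892 to 1.26 on the FPKM + 1 scale (limma adjusted p = 0.645). Wild type replicate 4, the library with airway genes, was the highest wild type heart for Ednrb. Without that library the log2 difference of Ednrb was 0.16 (adjusted p = 0.422).

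The share of the receptors varied among knockout hearts. Since FPKM is scaled to length, levels of different genes can be set side by side. The ratio of Ednra to Ednrb was 1.77, 1.27, 1.48 and 1.19 in wild type replicates 1 to 4 and 1.41, 1.33, 2.19 and 2.35 in knockout replicates 1 to 4. Knockout replicates 3 and 4 had a higher ratio than every wild type heart, and knockout replicates 1 and 2 lay within the wild type range. Ednra was above Ednrb in all 8 hearts.

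**Figure D1:**
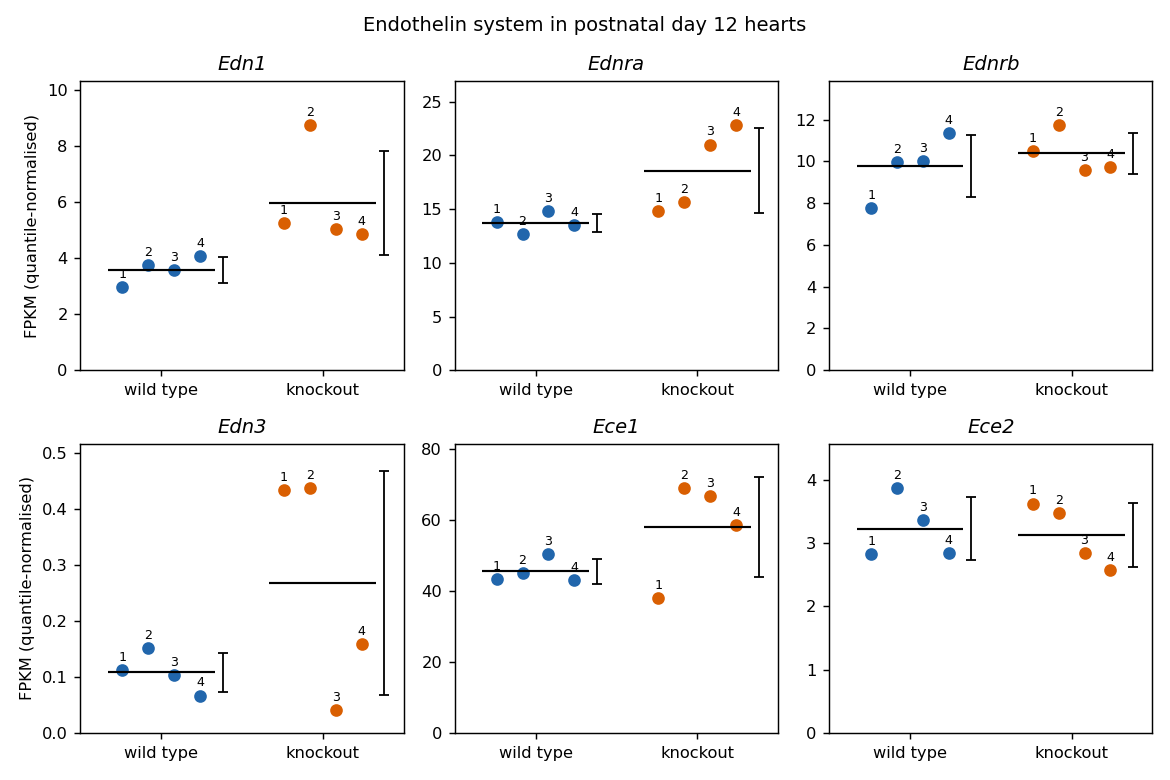
FPKM (linear axes from 0) of the 6 endothelin genes; each point is 1 heart library numbered by its replicate (wild type in blue, knockout in orange), the black line is the mean and the bar is 1 SD of 4 samples. Edn1 runs from 2.97 to 4.06 FPKM in wild type and from 4.85 to 8.74 FPKM in knockout hearts, which differ among themselves. Ednra is the only other gene whose groups do not overlap.

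Ece1, the main converting enzyme of big endothelin-1 in vessels (chr4:137862237-137965229), was the most abundant member. From replicate 1 to 4, the wild type hearts were at 43.3, 45.2, 50.5 and 43.1 FPKM and the knockout hearts at 38.1, 69.1, 66.9 and 58.5 FPKM. Knockout replicates 2, 3 and 4 were above all wild type hearts and knockout replicate 1 was below them all. With all 8 hearts Ece1 did not pass the test (log2 difference 0.31 ± 0.17, limma adjusted p = 0.243). Without knockout replicate 1 the log2 difference was 0.50, with adjusted p = 0.0105, so 1 library decided this call. Knockout replicate 1 was also the knockout library with almost no Ddx3y, and with the level of that gene as a covariate over all 8 hearts the difference of Ece1 was 0.24 (adjusted p = 0.367). The 4 RefSeq starts of Ece1 make isoforms with different first exons, which a value per gene does not separate. Gm13012 lies on the opposite strand within Ece1.

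Ece2, a converting enzyme known mainly from neurons and endocrine cells (chr16:20629828-20646485), was low in both groups and did not pass the test. In the order of replicates 1 to 4, wild type hearts gave 2.83, 3.88, 3.37 and 2.84 FPKM and knockout hearts 3.63, 3.48, 2.84 and 2.57 FPKM. The 2 ranges overlapped. The log2 difference was -0.03 ± 0.12 with a 95% interval of -0.30 to 0.23 (limma adjusted p = 0.874). A second annotated gene on the same strand, Gm49333, overlaps Ece2, so reads could be divided between them and these values are uncertain. Per length, Ece1 was 10.5 to 23.5 times as abundant as Ece2 over the 8 hearts.

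By mean level the order was Ece1, Ednra, Ednrb, Edn1, Ece2 and Edn3 in both groups. Neighbours in this order did not overlap within a group, with 1 exception: in wild type hearts Edn1 (2.97 to 4.06 FPKM) and Ece2 (2.83 to 3.88 FPKM) overlapped, and Edn1 was the higher in 3 of 4. In knockout hearts Edn1 was above Ece2 in 4 of 4, without overlap of their ranges. Among the tested genes the mean level of Ece1 stood at percentile 89.5, that of Edn1 at 33.5 and that of Ece2 at 22.1.

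Of the 5 tested members 1 was raised, 0 were lowered (6.01% of all tested genes were) and 4 did not pass the limma test, and at an unadjusted p under 0.05 Edn1 and Ednra were higher and 0 were lower, where 14.9% of all tested genes were higher and 14.8% lower. Edn1 and Ednra were also the 2 members that lay higher in every knockout heart, as did 10.3% of all tested genes. In bulk tissue a change in the number of cells of a type and a change in RNA per cell cannot be told apart. Of 10 endothelial markers 1 was raised (Eng) and 2 were lowered (Tek and Tie1), where 12.2% of all tested genes were called. The summed level of the 10 was 653 to 748 FPKM in wild type hearts and 641 to 693 FPKM in the knockout. The call of Eng (adjusted p = 0.0469) was kept only without knockout replicate 1 (adjusted p = 0.0135) among the omissions of 1 heart, and reached 0.116 without wild type replicate 4. As a percentage of the geometric mean of these 10 markers in the same heart, Edn1 was at 5.36, 6.19, 6.26 and 6.58 in wild type replicates 1 to 4. The knockout replicates 1 to 4 were at 9.52, 17.6, 9.32 and 10.2 percent. The geometric mean itself was lower in every knockout heart, at 47.5 to 55.1 FPKM against 55.4 to 61.6 FPKM in wild type hearts. With Edn1 higher and this denominator lower in every knockout heart, the percentages had to lie apart, which adds nothing to the comparison of Edn1. A lower denominator raises each percentage, so this scale does not correct for endothelial content alone. Ece1 was at 69.9 to 88.8 percent of the markers in wild type hearts, at 69.1 percent in knockout replicate 1 and at 123 to 139 percent in knockout replicates 2 to 4. The part of cell composition in these differences was not tested.

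**Figure D2:**
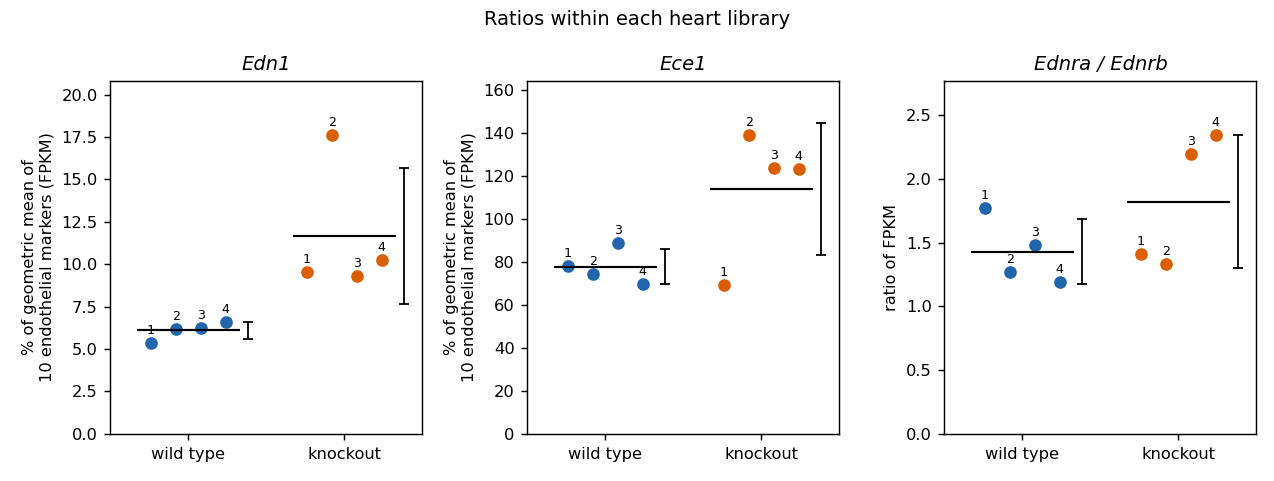
Edn1 and Ece1 as a percentage of the geometric mean FPKM of 10 endothelial markers, and the ratio of Ednra to Ednrb (linear axes from 0); each point is 1 heart library numbered by replicate, with the mean and 1 SD of 4 samples. Edn1 lies at 5.36 to 6.58 percent in wild type and 9.32 to 17.6 percent in knockout hearts, and knockout replicate 1 is low for Ece1.

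Cells that carry the receptors were followed through their markers. For scale, 12.2% of all tested genes were called, 6.15% as raised and 6.01% as lowered. Of 10 smooth muscle and pericyte markers, cells that bear ETA, 2 were raised (Notch3 and Tagln) and 0 lowered, with summed levels of 718 to 1168 FPKM in wild type hearts and 708 to 993 FPKM in the knockout. Of 7 fibroblast markers 0 were raised and 2 lowered (Lum and Dcn), with sums of 775 to 877 and 491 to 717 FPKM. Dcn averaged 344 and 233 FPKM in wild type and knockout hearts, and Lum 102 and 60.7 FPKM. Among the uncalled, Col1a1, Col1a2 and Pdgfra had lower means in the knockout, and Tcf21 and Mfap5 had higher means. The call of Lum (adjusted p = 0.0366) was lost without any single wild type heart and without knockout replicates 2 or 3, the highest adjusted p being 0.0887, without wild type replicate 4. Among 7 cardiomyocyte markers 0 were raised and 1 was lowered (Tnni3), with sums of 34279 to 38617 FPKM in wild type hearts and 26606 to 36089 FPKM in the knockout. The call of Tnni3 (adjusted p = 0.0169) was lost without knockout replicate 2 (0.0521). The markers show that the libraries are of heart muscle with its vessels, as labelled, apart from the airway genes of wild type replicate 4. The part of these cells in the levels of Ednra was not tested.

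The genes around the receptors changed in both directions. Of 29 other endothelin pathway genes with a row, 23 were tested, of which 3 rose, 2 fell and 18 missed the threshold, so 21.7% were called against 12.2% of all tested genes (6.15% raised and 6.01% lowered). At an unadjusted p under 0.05 by limma, 5 of the 23 were higher and 7 lower, against 14.9% and 14.8% of all tested genes. The list's median log2 difference was -0.0027, and that of all tested genes -0.0095. These genes were listed for their known roles, and nothing particular to the list is drawn from the counts.

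Arrb1, which encodes beta-arrestin 1 and uncouples activated receptors, rose. Wild type replicates 1 to 4 read 6.38, 5.90, 7.51 and 5.58 FPKM, and knockout replicates 1 to 4 read 11.1, 10.2, 10.1 and 8.68 FPKM. The groups were well apart. The difference was 0.59 ± 0.10 on the log2 scale (limma adjusted p = 0.00812), and this call held in 8 of 8 omissions of 1 heart. Plcb1, a phospholipase C that makes the second messenger IP3 downstream of Gq, fell. In the order of replicates 1 to 4, wild type hearts read 2.45, 3.25, 3.12 and 2.64 FPKM and knockout hearts 1.84, 1.25, 1.56 and 1.15 FPKM, without overlap. It was 1.98-fold lower by means (log2 difference -0.66 ± 0.12, limma adjusted p = 0.00775), and the call held in 8 of 8 omissions. The related Plcb3 and Plcb4 are drawn in the plot of pathway genes and did not pass the test.

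Gna13, a G protein alpha subunit, rose from 8.64 ± 0.785 to 12.5 ± 2.24 FPKM (SD, n = 4 per group; limma adjusted p = 0.0353). Every knockout heart was above every wild type heart. Its call was lost without wild type replicates 1, 2 or 3 (adjusted p = 0.0725, 0.105 and 0.0820) and without knockout replicates 2 or 3 (0.0757 and 0.0777). The close relative Gna12 was at 28.5 ± 1.65 and 34.5 ± 3.96 FPKM, short of the threshold (adjusted p = 0.0902). Prkcd, a protein kinase C isoform, rose from 5.37 ± 1.03 to 7.83 ± 0.786 FPKM (adjusted p = 0.0356). Wild type replicate 4 and knockout replicate 3 met at 6.67 FPKM. The call of Prkcd was lost without wild type replicates 1, 2 or 3 (0.0744, 0.0767 and 0.0878) and without knockout replicates 2 or 4 (0.0887 and 0.0590).

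Cma1, the mast cell chymase, which can also cut big endothelin-1, fell. Wild type replicates 1 to 4 read 2.98, 2.69, 1.22 and 3.59 FPKM, and knockout replicates 1 to 4 read 0.897, 0.681, 1.24 and 0.487 FPKM. Wild type replicate 3 was as low as the highest knockout heart. By means it was 3.18-fold lower (log2 difference -0.96 ± 0.22, limma adjusted p = 0.0226). The call was lost without wild type replicates 1, 2 or 4 (adjusted p = 0.0564, 0.0723 and 0.0618) and without knockout replicate 2 (0.0636). Chymases form a family of close paralogs in the mouse, so the value of Cma1 is uncertain. Rgs5, a pericyte gene, and Rgs3, both of which speed the shut-off of G proteins, did not pass the test: Rgs5 was at 219 ± 1.35 and 247 ± 30.5 FPKM and Rgs3 at 30.1 ± 2.02 and 29.7 ± 2.24 FPKM in wild type and knockout hearts.

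**Figure D3:**
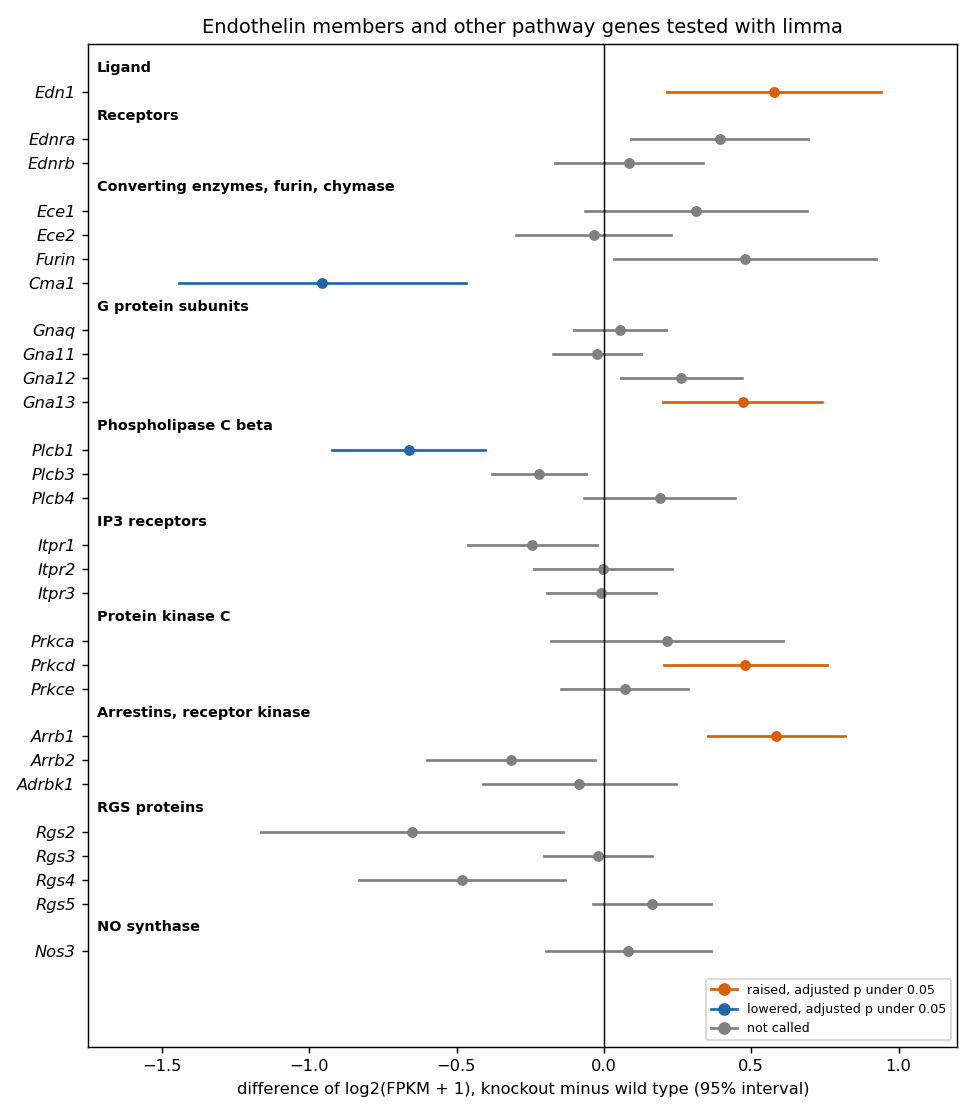
Difference of log2(FPKM + 1), knockout minus wild type, with its 95% limma interval, for the tested endothelin members and the tested pathway genes grouped by role; orange was raised, blue lowered and grey not called at adjusted p under 0.05. Edn1 lies at 0.58, Arrb1 at 0.59 and Plcb1 at -0.66, and most other genes have intervals that reach or nearly reach 0.

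Of 20 genes known to regulate Edn1 transcription, all tested, 2 rose, 0 fell and 18 did not pass the limma test, so 10% were called against 12.2% of all tested genes. At an unadjusted p under 0.05, 5 of the 20 were higher and 3 lower, where 14.9% and 14.8% of all tested genes were. The list's median log2 difference was -0.02. Hif1a, the HIF subunit named first in this list, rose 1.67-fold (log2 difference 0.72 ± 0.09, adjusted p = 0.00220). F2r, the thrombin receptor PAR1, had wild type values of 16.0, 18.1, 18.7 and 19.9 FPKM and knockout values of 24.2, 31.4, 24.1 and 24.6 FPKM, in the order of replicates 1 to 4. Knockout replicate 2 was the highest, as it was for Edn1. The rise of F2r was 0.49 ± 0.11 on the log2 scale (adjusted p = 0.0177), and its call was lost without wild type replicate 2 (0.0569). Klf2, a shear-responsive factor known to restrain Edn1, averaged 25.4 ± 6.39 FPKM in wild type hearts against 17.4 ± 2.53 FPKM in the knockout (adjusted p = 0.0891, and 0.0372 without wild type replicate 4). Epas1 (adjusted p = 0.542) and Nfkb1 (0.683) did not pass the test.

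Among genes that endothelin-1 is known to raise in cultured cardiomyocytes, Ctgf, Nppa, Nppb and Ankrd1 had higher means in knockout hearts, the latter 3 with a wide spread, while Myh7 and Egr1 had lower means. Of 6 in the table, all tested, 1 rose (Ctgf, 3.42-fold, adjusted p = 0.000693), 0 fell and 5 did not pass the limma test, so 16.7% were called against 12.2% of all tested genes (6.15% raised and 6.01% lowered). At an unadjusted p under 0.05, 3 of the 6 were higher and 1 lower, against 14.9% and 14.8% of all tested genes. The median log2 difference was 1.24. Nppa, the atrial natriuretic peptide gene, had wild type values of 1246, 1323, 1786 and 1744 FPKM and knockout values of 2195, 8759, 4184 and 2631 FPKM, in the order of replicates 1 to 4. Every knockout heart was above every wild type heart, by amounts that differed widely (adjusted p = 0.0580, but 0.0291 without knockout replicate 1 and 0.0447 without knockout replicate 2). Nppb and Ankrd1 were the other abundant genes of the list. Nppb was at 1357, 711, 369 and 119 FPKM in knockout replicates 1 to 4 against 158 to 219 FPKM in wild type hearts, and Ankrd1 at 1127, 996, 658 and 221 FPKM against 227 to 376 FPKM. For both, knockout replicate 4 was below all wild type hearts. Without it the adjusted p was 0.0270 for Nppb and 0.00332 for Ankrd1, against 0.219 and 0.148 with all hearts.

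The genes most like Edn1 over the 8 hearts were Efhd2, Unc5b and Rhod, by the root mean square difference of log2(FPKM + 1) profiles centred on their own means, among 11385 tested genes outside the 6. That difference was 0.10 for Efhd2 and 0.11 for Unc5b and Rhod, where the profile of Edn1 itself had a root mean square of 0.37 about its mean. The profiles share the same libraries and the likeness carries no test. Unc5b, a netrin receptor of endothelial cells, had wild type values of 8.74, 10.005, 9.18 and 9.998 FPKM and knockout values of 14.6, 18.4, 13.5 and 13.8 FPKM, in the order of replicates 1 to 4 (adjusted p = 0.00668). Rhod, a small GTPase, had 3.41, 3.38, 3.66 and 4.33 FPKM in wild type and 5.08, 7.61, 4.60 and 5.31 FPKM in knockout replicates 1 to 4. In all 3 genes, as in Edn1, knockout replicate 2 was the highest heart. The 3 were picked for their likeness to Edn1, so this peak and the direction of their group differences follow from the choice. Their p-values are therefore no separate evidence. Efhd2, a calcium-binding protein gene, did not pass the test (adjusted p = 0.0582, and 0.0444 without knockout replicate 4). The call of Rhod (0.0462) was lost without any single wild type heart (0.0585 to 0.130) and without knockout replicates 2 or 4 (0.0757 and 0.0589).

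**Figure D4:**
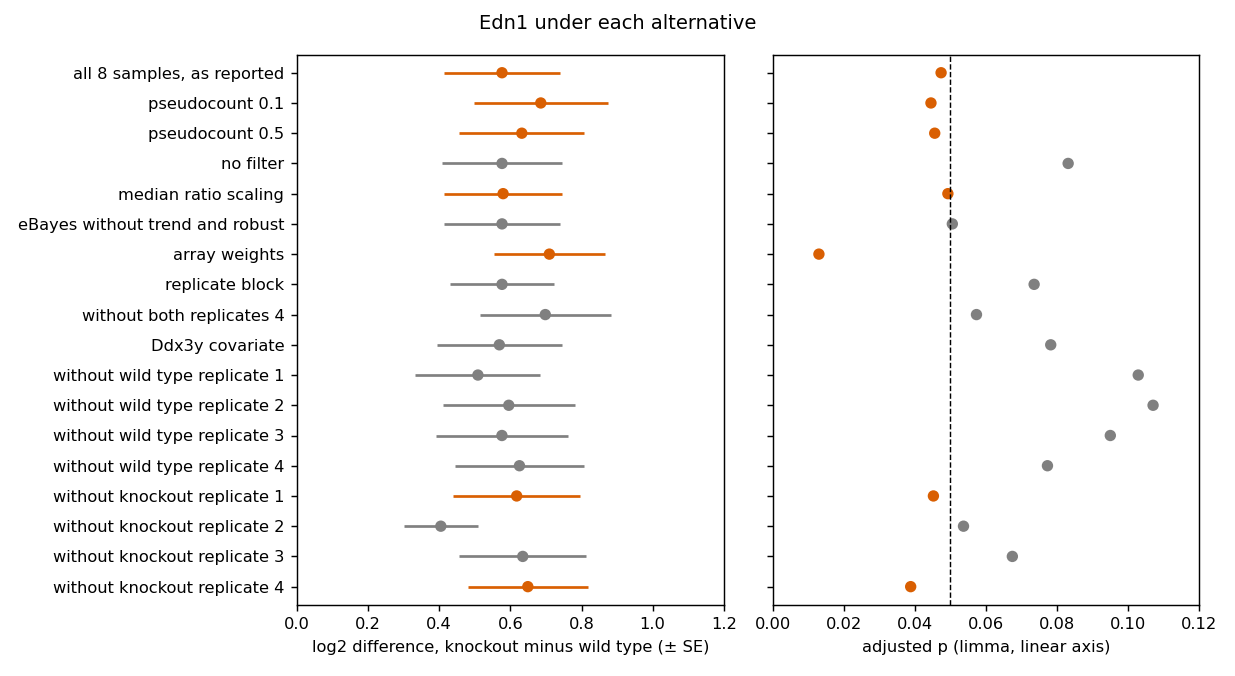
Left, the log2 difference of Edn1 between knockout and wild type hearts with its SE under each setting but the minimum change of 1.5-fold, where its adjusted p was 1 (linear axis); right, its limma adjusted p (linear axis) with a dashed line at 0.05; orange passed the threshold and grey did not. Among the settings drawn the difference stays between 0.40 and 0.71 while the adjusted p runs from 0.0131 with array weights to 0.107 without wild type replicate 2.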

How the data were processed

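Whole-heart RNA was sequenced in 8 TruSeq libraries, per the labels' protocols, and the submitters' processing notes name TopHat2, Cufflinks and the build mm10 without versions. The values deposited by the authors were read as FPKM on a linear scale, since the table names no unit; they were quantile normalised (the highest 39 ranks hold 1 value in all columns), so depth and counting error cannot be recovered. Groups and replicate numbers came from the titles. Genes averaging at least 1 FPKM were compared on log2(FPKM + 1) with limma 3.58.1 in R 4.3.3 (lmFit, eBayes with trend and robust, no covariate) with Benjamini-Hochberg adjustment over 11390 genes, called at adjusted p under 0.05. Each member was also put through an exact permutation test, two-sided (scipy 1.17.1, Python 3.11.15). The fit was tested on simulated data. Alternatives changed the pseudocount, filter, scaling, variance model, weights, replicate block and threshold, or left out each heart; omission of both replicates 4 and a covariate for the Y chromosome gene Ddx3y were chosen after seeing the data.

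The members, gene lists and tests were chosen with earlier results of these data known. Named genes were the 6 members, Edn2, the called genes of 3 pathway lists (up to 6 by p) with up to 3 uncalled genes of highest level, the 3 genes nearest to each called member, and the targeted genes; marker genes and Mme were named after their values were seen. Of the listed genes Acta1, Adgre1 and Adgrg6 were not analysed here, and Ccn2 and Grk2 were matched under their older symbols Ctgf and Adrbk1. Gene positions came from GENCODE M21 and start windows from RefSeq, GRCm38.p6.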

Additional observations from a re-analysis of the deposited data

Results flagged for a closer look

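Edn1 stood out among the knockout hearts because 1 sample lay far from the other 3: knockout replicate 2 was at 8.74 FPKM and the next highest knockout heart at 5.25 FPKM, a gap of 0.898 of the group's range. In the same heart F2r was at 31.4 FPKM, with the next at 24.6 FPKM (0.929 of the range). Nfkb1 was at 19.98 FPKM in wild type replicate 3, with the next wild type heart at 18.4 FPKM (0.880 of the range). Each gap was above Dixon's 95% critical value for 4 samples, which chance passes in about 1 in 20 groups. Here 3 of 56 groups of named genes passed it.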

How the results depend on the processing

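The call of Edn1 was lost in 6 of 8 omissions of 1 heart and under 6 of 10 other limma alternatives: no filter (adjusted p = 0.0831), no trend and robust options (0.0506), replicate block (0.0736), a minimum change of 1.5-fold (1), omission of both replicates 4 (0.0574) and the Ddx3y covariate (0.0782). Its direction held in each of them. A filter at 5 FPKM removed Edn1 itself, so 0 members were raised there, as under those 6; omission of 1 heart gave 0 to 3 raised and 0 lowered members. The total of 1385 called genes became 613 with the replicate block, 37 at a minimum change of 1.5-fold and 575 to 1820 with 1 heart omitted. Over all tested genes, deviations of same-numbered hearts from their group means had correlations of -0.226, 0.0093, 0.102 and -0.0966. Hearts of unlike number gave -0.186 to 0.274. With 4 samples per group these values cannot show whether the numbers pair the samples, and the labels do not say.

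Of other pathway genes, 3 raised and 2 lowered became 1 raised with no filter, 0 and 0 at the minimum change, 0 lowered at 5 FPKM, 1 lowered with the replicate block or without both replicates 4, and 1 to 4 raised and 1 to 3 lowered with 1 heart omitted. Of regulators of Edn1, 2 raised became 4 with array weights, 0 at the minimum change and 1 to 4 with 1 heart omitted, and 0 lowered became 1 with array weights or without both replicates 4 and 0 to 1 with 1 heart omitted. Of genes raised by endothelin-1, 1 raised became 2 without trend and robust options, 4 with array weights, 3 without both replicates 4 and 1 to 3 with 1 heart omitted, and 0 lowered became 1 with array weights or without both replicates 4 and 0 to 1 with 1 heart omitted. Signs of log2 differences near 0 turned. With 1 heart omitted Ednrb ran from -0.0081 to 0.16, Ece2 from -0.092 to 0.036 and Rgs3 from -0.069 to 0.0040; Ece2 was also at 0.036 with the Ddx3y covariate, Rgs3 at 0.00046 with array weights and 0.010 without both replicates 4, and Egln1 at -0.0041 without both. The cause was not tested. Median ratio scaling changed no call of a member.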

Other observations

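Markers of melanocytes, a lineage that Edn3 and Ednrb are known to guide, differed widely in level in these hearts. Dct, an enzyme of melanin synthesis, rose: wild type replicates 1 to 4 gave 2.45, 2.65, 2.16 and 1.47 FPKM, and knockout replicates 1 to 4 gave 5.52, 5.04, 3.15 and 6.39 FPKM (log2 difference 0.90, limma adjusted p = 0.0145). This call held in 8 of 8 omissions of 1 heart. Other melanocyte genes did not follow: Tyr, Pmel and Tyrp1 were at no more than 0.454 FPKM in any heart. Mlana was the most abundant of the list, at 6.60 to 12.7 FPKM in wild type and 3.92 to 19.9 FPKM in knockout hearts. It did not pass the test (limma adjusted p = 0.836).

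Mme, which encodes neprilysin, a protease that degrades endothelins and natriuretic peptides, had a mean under 1 FPKM and was not in the main comparison. Wild type replicates 1 to 4 read 1.55, 0.921, 1.28 and 0.987 FPKM, and knockout replicates 1 to 4 read 0.660, 0.474, 0.542 and 0.332 FPKM. Every knockout heart was lower than every wild type heart (limma without the filter, adjusted p = 0.0314). Without the filter 1078 genes were called in all, and the share of all genes lower in every knockout heart was not counted. The other pathway genes under the filter, Ecel1, Plcb2, Edn2, Mmel1 and Kel, overlapped between groups. None of them was called without the filter (limma adjusted p = 0.236 to 0.973). Mme was picked after its values were seen. Among leukocyte genes, 1 of 5 macrophage markers rose (Lyz2, limma adjusted p = 0.00453) and 0 fell. Of all tested genes 6.15% were raised and 6.01% lowered. Wild type hearts had sums of 57.3 to 64.7 FPKM over these 5 markers, and the knockout sums ran from 81.9 to 98.1 FPKM. Lyz2 made up most of each sum, and its mean went from 41.2 to 65.9 FPKM. The means of Cd68 (4.74 to 4.68 FPKM) and Csf1r (9.12 to 8.23 FPKM) were slightly lower with the knockout. Those of Mrc1 and Cd163 were higher, and none of these 4 passed the test. The separated sums therefore do not show a rise across the list.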
